A study of Homo sapiens with 2 samples.

Results

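The genes that build heparan sulphate and chondroitin sulphate, together with the core proteins that carry these chains, were compared between both substates of the H9 line. The set held 57 genes, of which 42 encode enzymes and 15 encode carriers, grouped here by function. A gene entered through array probes whose RefSeq accession is assigned to it. Of the 57 genes, 55 had at least 1 such probe (73 probes in all), among 22435 genes that could be named on the array, and 49 genes were well above background on both arrays, among 15999 genes so measured. No probe was matched to GPC2 or HS3ST3A1 here.

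H9 is a human embryonic stem cell line. In the study it was moved from vitronectin to Matrigel, a basement membrane extract, in the serum-free medium TeSR-E8, and no gene was altered. Substate 1 was defined by compact colonies with strong R-10G staining (an epitope on keratan sulphate) and almost no vimentin, and substate 2 by looser colonies with weak R-10G staining and strong vimentin. RNA of substate 1 came from passage 35 and RNA of substate 2 from passage 50, with 1 single-colour Agilent array for each. Substate, passage and array therefore cannot be told apart, no difference has a replicate check and no p-value is given. The study's methods give passage 35 as the passage that was put on Matrigel. Whether both RNA samples came from the same matrix was not established here, so matrix may be confounded with substate too. In the study, sorted cells of either substate gave rise to both again after subculture, and the sources used here do not say how pure the cells taken for RNA were. In such bulk RNA, fewer cells of a type and less RNA per cell cannot be told apart.

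Both chains are long sulphated sugars bound to serine residues of carrier proteins through a common linker of xylose, galactose and glucuronic acid. Once the linker is made, either the EXT enzymes extend it as heparan sulphate or the chondroitin synthases extend it as chondroitin sulphate. Sulphotransferases and epimerases then modify the chain, and the resulting pattern of sulphate groups sets which growth factors, such as FGFs, WNTs and BMPs, the chain can bind. In pluripotent stem cells heparan sulphate at the cell surface is known as a co-receptor for FGF2, and Matrigel itself contains a heparan sulphate proteoglycan.

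Array signals are given as log2 values relative to the 75th percentile of the same array, so that 0 is the level of that percentile, and a difference is the log2 value in substate 2 minus that in substate 1. A signal is not a transcript number and is compared only between arrays, never between genes. The labels were borne out by their markers: VIM (vimentin) was at 3.16 in substate 1 and 5.68 in substate 2, CDH1 (E-cadherin) at 4.91 and 3.44, and ZEB1, a repressor of epithelial genes, at -2.34 and 0.19. The pluripotency genes POU5F1, NANOG, SOX2 and LIN28A were well above background on both arrays, with differences from 0.18 to 0.42. Of the non-control spots, 57.4% in substate 1 and 54.7% in substate 2 were well above background.

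No gene of the set differed 2-fold between the substates, whereas 6 differed 1.5-fold or more, and 5 of these were lower in substate 2. The 5 were HPSE (heparanase), HS3ST3B1, GLCE, GPC4 and HS3ST5, and each of them makes, cuts or carries heparan sulphate. Of the 49 genes measured, 26 belong to heparan sulphate. After quantile or loess normalisation DSE, a chondroitin sulphate modification gene, was 1.5-fold lower too. The gene that was higher, CHST15, adds a sulphate group to chondroitin sulphate. The 5 lower genes were 10.2% of the 49 measured, beside 5.03% of all genes measured on both arrays, and the 1 higher gene was 2.04%, beside 4.32% of all genes. After normexp background correction, which adds a constant of 50 to every signal and so narrows the differences of dim probes, only GPC4 was still 1.5-fold lower, 1 gene beside 1.95% of all genes, so that the other 4 calls were lost and the share was close to the background. At 2-fold, 1.07% of all genes were lower and 0.931% were higher. The median difference of the 49 genes was -0.03, with a range of -0.82 to 0.68, against 0.08 for all genes, and 34 of the 49 lay below the median of all genes. Below 0 were 26 of the 49 (53.1%), beside 40.2% of all genes. The median of the set itself turned to 0.01 when the arrays were centred on their medians. Under each alternative it lay below the median of all genes, by 0.09 to 0.21. After quantile or loess normalisation, however, 29 of the 49 genes lay below the median of all genes, where 34 were reported.

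Error within the arrays can be set beside these differences. For probes printed many times on each array, the difference of single spots carried a median SD of 0.086 on the log2 scale among the dim probes and 0.061 among the bright ones, far less than the 0.58 that corresponds to 1.5-fold. This spread covers printing and hybridisation and leaves out culture, RNA and labelling. Different probes of 1 gene varied more. Among the 3414 genes with exactly 2 measured probes, the gap between the probes had a median of 0.15 and a 90th percentile of 0.49. Of the 262 probes of such genes that were 1.5-fold or more lower, 229 (87.4%) had a partner below the median of all genes, but only 106 (40.5%) had one that was also 1.5-fold lower. For the 280 probes that were 1.5-fold or more higher, the partner was above the median of all genes for 237 (84.6%) and itself 1.5-fold higher for 96 (34.3%). The partner thus shared the direction more often than the size. In the set, 39 genes rested on 1 measured probe and 10 on 2.

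**Figure D1:**
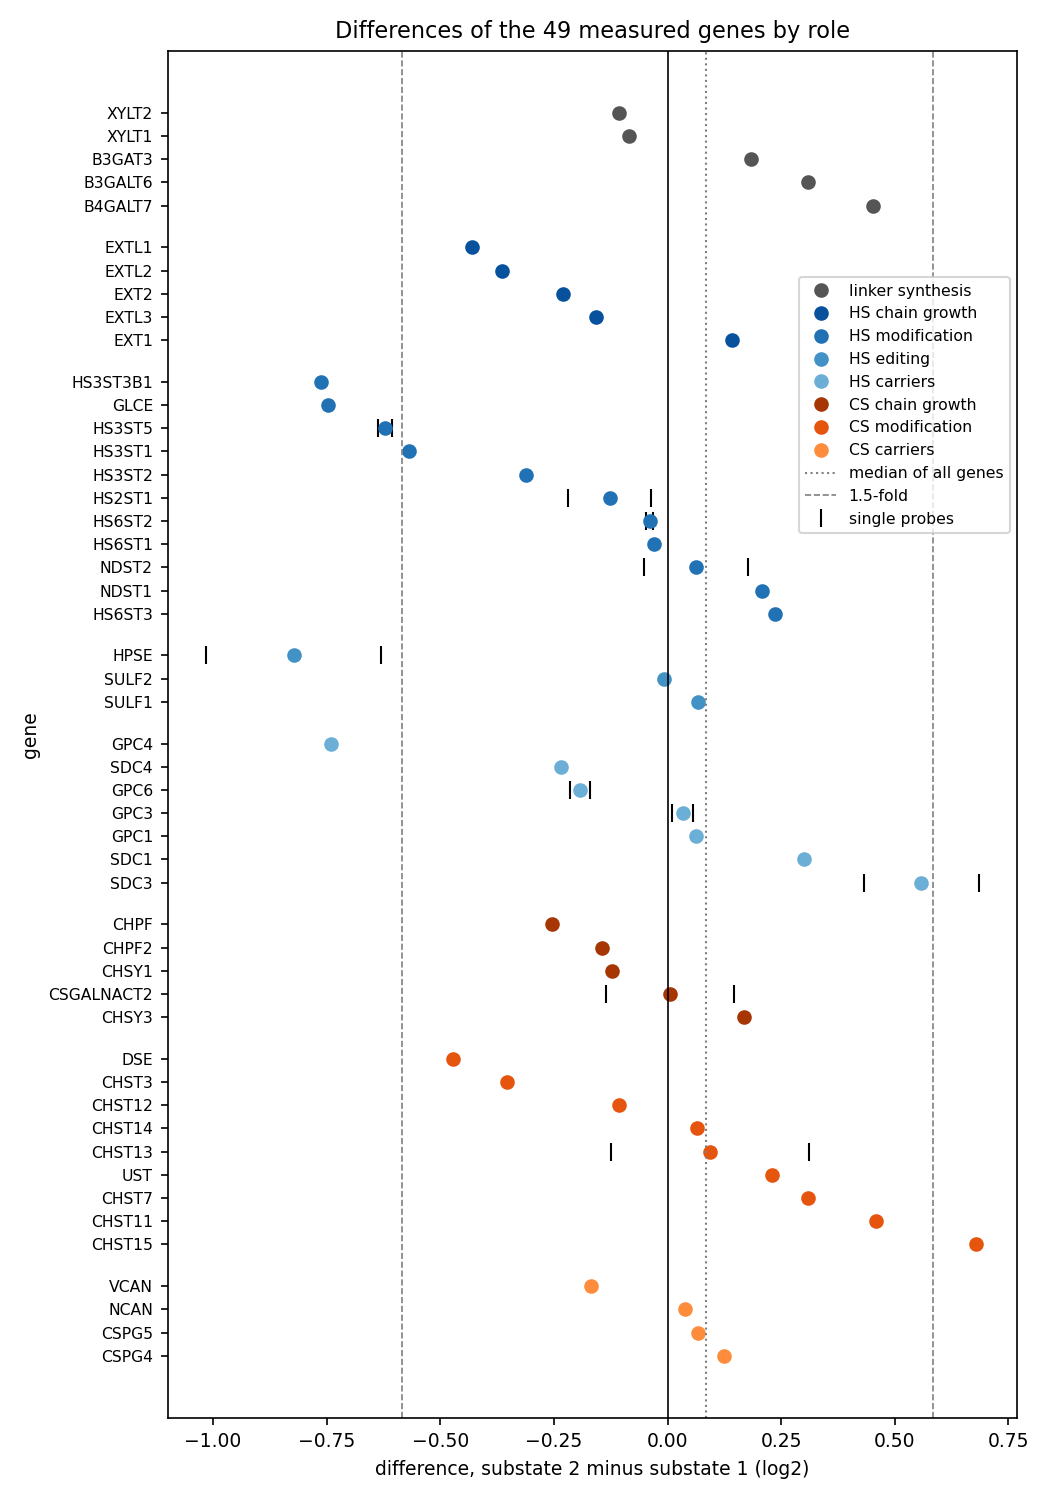
Difference between substate 2 and substate 1 (x axis, log2) for the 49 genes of the set measured on both arrays (y axis), ordered by role, where HS is heparan sulphate and CS chondroitin sulphate. Circles are gene values, vertical ticks the probes of genes with 2 measured probes, the dotted line the median of all genes (0.08) and the dashed lines 1.5-fold. As reported here, the 5 genes left of the lower dashed line all belong to the heparan sulphate groups, which hold 26 of the 49 genes.

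As reported here, the 2 branches of the pathway did not lie alike. On the heparan sulphate side (chain growth, modification, editing and carriers) 26 of 32 genes were measured, with a median difference of -0.14, and 21 of the 26 lay below the median of all genes. On the chondroitin sulphate side 18 of 20 genes were measured, with a median of 0.05, and 11 of the 18 lay below it. Between other scalings and filters the heparan sulphate median stayed negative, from -0.19 to -0.05. The chondroitin sulphate median moved between -0.11 and 0.09 and so had no stable sign. Without a filter on dim probes the order of the branches turned, with medians of -0.08 (heparan sulphate) and -0.11 (chondroitin sulphate). In that setting 22 of 30 and 14 of 20 genes lay below the median of all genes. Below the median of all genes were 20 to 22 heparan sulphate genes, of 26 to 30 that entered, and 7 (quantile and loess) to 14 chondroitin sulphate genes, of 18 to 20, the highest count of each branch including genes let in by a looser filter. With 1 array for each substate the difference between the branches could not be tested.

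**Figure D2:**
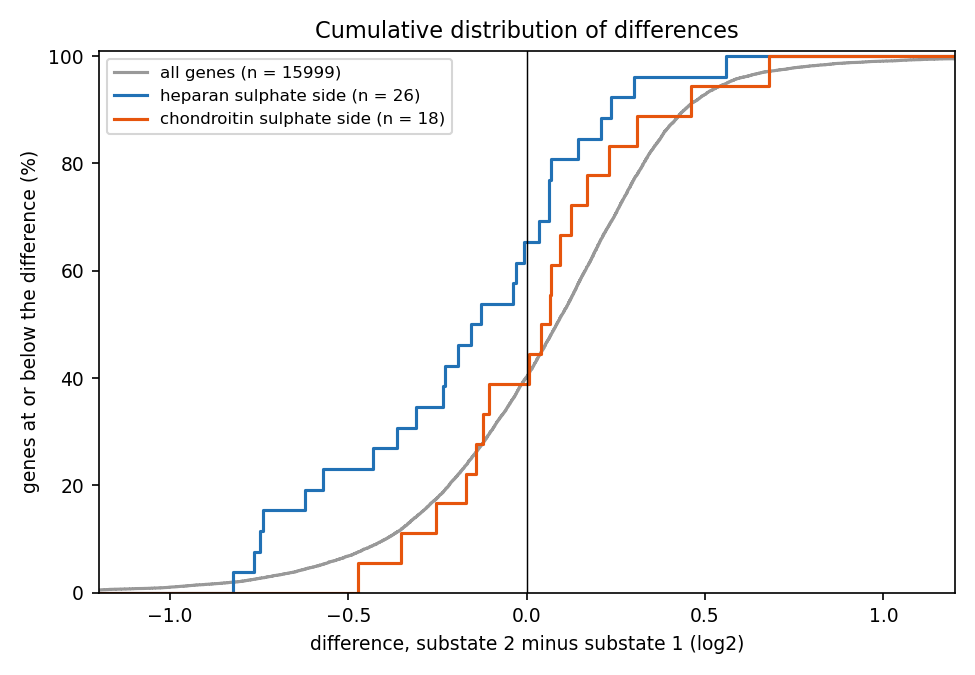
Cumulative share of genes (y axis, %) by difference between substate 2 and substate 1 (x axis, log2) for all 15999 genes measured on both arrays, the 26 measured genes of the heparan sulphate side and the 18 of the chondroitin sulphate side. From its lowest value (-0.82) upward the heparan sulphate curve lies left of the curve of all genes (medians of -0.14 and 0.08). Some genes outside the set lie below that value. The chondroitin sulphate curve crosses the curve of all genes.

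The linker enzymes act before the branches part. XYLT1 and XYLT2, the xylosyltransferases that start every chain, had differences of -0.09 and -0.11. The enzymes of the later steps were higher in substate 2, with B4GALT7 (first galactose) at -0.05 in substate 1 and 0.40 in substate 2, a 1.37-fold difference, B3GALT6 (the next galactose) at a difference of 0.31 and B3GAT3 (glucuronic acid) at 0.18. The signal of XYLT2 was 4.78 in substate 1 and 4.67 in substate 2. None of the 5 enzymes reached 1.5-fold, and the median of the group was 0.18.

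Of the 5 glycosyltransferases that start and extend heparan sulphate, 4 were lower in substate 2, and the median of the group was -0.23. EXTL1 was at -2.54 in substate 1 and -2.97 in substate 2, and EXTL2, which can add a sugar that stops growth on the linker, was 1.29-fold lower. EXT2 and EXT1 form the polymerase of the chain, and their differences were -0.23 and 0.14. EXTL3, which adds the first N-acetylglucosamine and so commits the linker to heparan sulphate, had a signal of 5.92 in substate 1 and 5.76 in substate 2. All differences in this group were under 1.5-fold.

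The modification enzymes of heparan sulphate are described by the reaction they catalyse. All 4 measured 3-O-sulphotransferases of the set were lower in substate 2, with a median difference of -0.60, beside 40.2% of all genes below 0. These enzymes place a rare sulphate needed for a few specific ligands such as antithrombin. HS3ST3B1 was at -1.22 in substate 1 and -1.99 in substate 2, a 1.70-fold difference. HS3ST5 had 2 probes, which lay at 0.36 and -0.91 in substate 1 and at -0.28 and -1.51 in substate 2, so that they differed by -0.64 and -0.61 and gave a mean that was 1.54-fold lower. HS3ST1 was just short of the limit at 1.48-fold lower, with -0.67 in substate 1 and -1.24 in substate 2. HS3ST2 was dim, at -2.83 and -3.15. Outside the set, the 3-O-sulphotransferase HS3ST4 was at 0.57 and 0.48, a difference of -0.09.

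GLCE, the epimerase that turns glucuronic acid into iduronic acid within heparan sulphate, was at -0.19 in substate 1 and -0.94 in substate 2, a 1.68-fold difference from 1 probe. The enzymes that act before or beside these steps differed little. NDST1 and NDST2, which replace N-acetyl by N-sulphate groups and open the chain to further modification, had differences of 0.21 and 0.06, with NDST1 at 4.33 in substate 1 and 4.54 in substate 2. HS2ST1, the only 2-O-sulphotransferase of heparan sulphate, differed by -0.13. HS6ST1, HS6ST2 and HS6ST3, which add 6-O-sulphate, differed by -0.03, -0.04 and 0.24.

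Limits apply to these values. HS3ST3B1 has a close relative in HS3ST3A1, and whether its probe tells them apart was not tested. Its other probe, near background on both arrays (-6.57 and -4.76), went the other way by 1.81, and when dim probes were kept the gene value turned to 0.52. After normexp correction HS3ST3B1, HS3ST5, GLCE, HS3ST1 and HS3ST2 were at -0.34, -0.35, -0.55, -0.40 and 0.02, all inside 1.5-fold.

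Heparan sulphate is edited after it has left the Golgi. HPSE, the endoglucuronidase that cuts the chain and frees the factors bound to it, was lower in substate 2 by both of its probes. Its 2 probes were at -1.21 and -2.47 in substate 1 and at -1.84 and -3.49 in substate 2, that is 1.55-fold and 2.02-fold lower, and the gene value was 1.77-fold lower. Of all genes measured on both arrays, 1.98% had a lower difference. Both probes were dim, and normexp correction brought the gene value to -0.24. SULF1 and SULF2, the extracellular enzymes that remove 6-O-sulphate, differed by 0.07 and -0.01, with SULF2 at 3.45 in substate 1 and 3.44 in substate 2.

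Of the 10 heparan sulphate carriers, 7 were measured on both arrays. GPC4, a glypican held at the cell surface by a lipid anchor, gave a signal of 63.9 times the 75th percentile in substate 1 and 38.3 times in substate 2, 1.67-fold lower. Its value rested on 1 probe, well above background on both arrays, so settings that filter or combine probes could not change it. GPC4 was the only one of the 5 lower genes that stayed beyond 1.5-fold lower under every alternative, with a range of -0.91 to -0.70. The other measured glypicans, GPC1, GPC3 and GPC6, had differences of 0.06, 0.03 and -0.19. Among the syndecans, which span the membrane, SDC3 was higher in substate 2, with probes at -1.71 and -3.70 in substate 1 and at -1.28 and -3.01 in substate 2 and a mean of 1.47-fold, just inside the limit. It passed the limit after centring on the median or quantile normalisation. SDC1 was at 3.50 and 3.81, and SDC4 at 2.81 and 2.57. For SDC2 the single probe passed background on the substate 1 array alone, and the bound was at least 1.32-fold lower. GPC5 was near background on both arrays, and its 2 probes went opposite ways. They were at -5.41 and -6.49 in substate 1 and at -6.27 and -6.05 in substate 2.

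**Figure D3:**
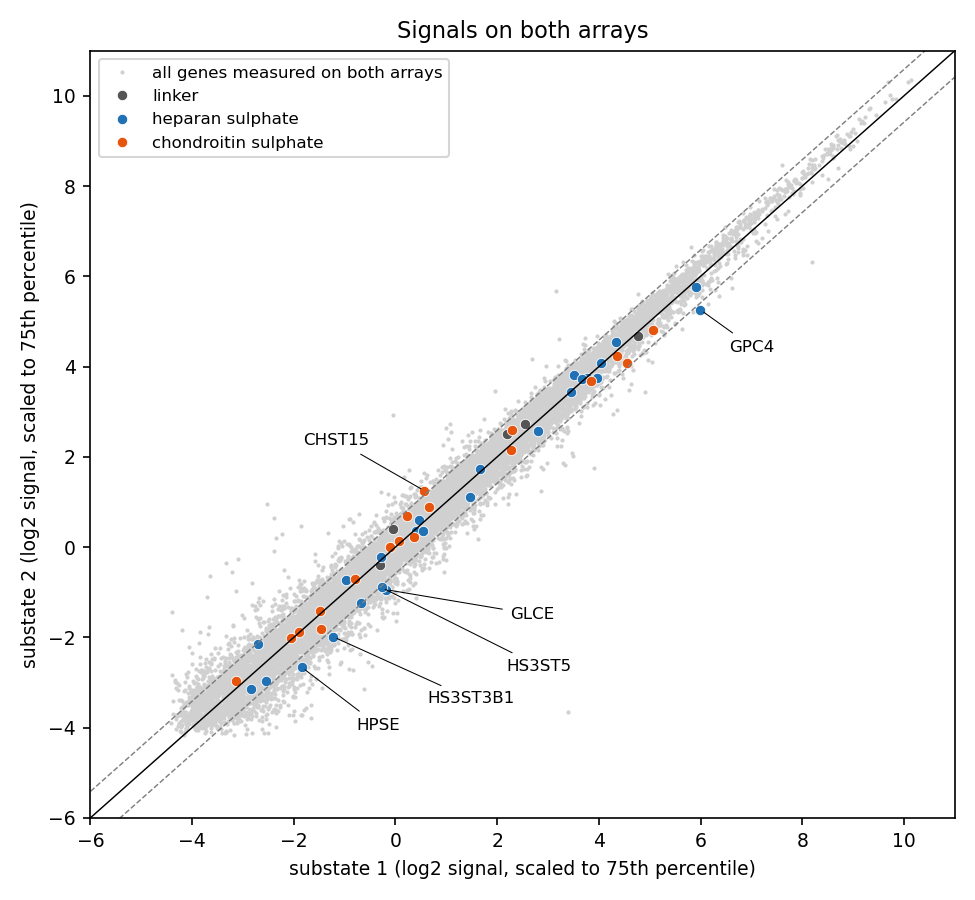
Signal of each gene in substate 1 (x axis) and substate 2 (y axis), both log2 relative to the 75th percentile of the array, for all genes measured on both arrays (light grey), linker enzymes, heparan sulphate genes and chondroitin sulphate genes. The solid line marks equal signal and the dashed lines 1.5-fold. The 5 lower genes lie below the lower dashed line and CHST15 above the upper one.

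Chondroitin chain growth differed little. CHSY1, CHSY3, CHPF and CHPF2, which together polymerise the chain, had differences of -0.12, 0.17, -0.25 and -0.14, with CHPF at 5.06 in substate 1 and 4.81 in substate 2. CSGALNACT2, which adds the first N-acetylgalactosamine, had 2 measured probes on opposite sides of 0 and a mean of 0.01. CSGALNACT1 was near background on both arrays.

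All 9 modification enzymes of chondroitin and dermatan sulphate were measured. CHST15, which adds a second sulphate to a residue that already carries 4-O-sulphate, was at 0.57 in substate 1 and 1.25 in substate 2, 1.60-fold higher from 1 probe. Its other probe was near background on both arrays, and with dim probes kept the gene value was 0.20. CHST11, the main 4-O-sulphotransferase that makes the substrate of CHST15, was at 0.22 and 0.68, 1.37-fold higher. The other 4-O-sulphotransferases were closer to 0, with CHST12 at -0.11, CHST13 at 0.09 over probes of -0.12 and 0.31, and the dermatan-specific CHST14 at 0.07. Of the 6-O-sulphotransferases, CHST3 was lower (-0.35) and CHST7 higher (0.31). UST, a 2-O-sulphotransferase, differed by 0.23. DSE, the epimerase that makes dermatan sulphate, was at 4.55 in substate 1 and 4.08 in substate 2, 1.39-fold lower. It was beyond 1.5-fold lower after quantile or loess normalisation.

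The chondroitin sulphate carriers were nearly equal on the arrays. VCAN (versican) was at 3.85 in substate 1 and 3.68 in substate 2. NCAN (neurocan) differed by 0.04. CSPG4 (NG2) differed by 0.12, and its other probe, near background on both arrays, was at -4.63 and -5.65. CSPG5 (neuroglycan C) was at 0.07 in substate 1 and 0.14 in substate 2 for the probe measured on both arrays. That is a difference of 0.07. Its other probe, at -3.505 and -4.36, passed background on the substate 1 array alone, with a bound of at least 1.61-fold lower. Of all probes in that class, 25.7% were 1.5-fold or more lower by their bound. BCAN (brevican) was near background on both arrays.

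The Z-score of the study, by which a probe is called when its difference lies 2 SD from the mean of all probes (2.53-fold higher or 2.29-fold lower here), picked 3 of the 73 probes, and all 3 were higher in substate 2. They belonged to NDST4 (difference 2.45), HS3ST3B1 (1.81) and CSGALNACT1 (1.49). None was well above background on either array, so no fold is given for them. Of all probes, 3.03% were called higher and 3.3% lower, and of all probes near background on both arrays 5.16% were called higher, while 12 probes of the set were in that class. With the mean and SD taken over probes measured on both arrays, the 1 call was a probe of HPSE, lower in substate 2. It was not among the 3 above, and its Z-score over all probes was -1.72. The share of all probes called was not computed for that setting.

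The upstream sequences of the 6 genes that differed 1.5-fold are shown because the results turn on these genes, and because their promoters differ in base composition. The sequences are from RefSeq (GRCh38.p14), 250 bases before the annotated start of each gene, written 5′ to 3′ on the strand of the gene. Capitals mark matches, on either strand, to GGGCGG, the GC box bound by SP1, and to CACCTG, the E-box bound by ZEB1 and related repressors; the motifs do not overlap. The regions are chrX:133415490-133415739 (minus strand), chr15:69160385-69160634 (plus), chr17:14300831-14301080 (plus), chr6:114343024-114343273 (minus), chr4:83335154-83335403 (minus) and chr10:124093599-124093848 (minus).
GPC4: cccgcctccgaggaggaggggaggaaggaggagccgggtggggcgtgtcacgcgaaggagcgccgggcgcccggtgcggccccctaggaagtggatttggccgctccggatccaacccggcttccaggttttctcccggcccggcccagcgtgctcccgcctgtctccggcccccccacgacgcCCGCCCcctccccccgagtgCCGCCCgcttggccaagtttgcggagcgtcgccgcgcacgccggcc
GLCE: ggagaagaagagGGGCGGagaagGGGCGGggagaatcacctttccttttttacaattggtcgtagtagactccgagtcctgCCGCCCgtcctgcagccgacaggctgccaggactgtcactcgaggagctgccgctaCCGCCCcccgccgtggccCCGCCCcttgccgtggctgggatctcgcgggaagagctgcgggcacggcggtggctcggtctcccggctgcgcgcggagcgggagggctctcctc
HS3ST3B1: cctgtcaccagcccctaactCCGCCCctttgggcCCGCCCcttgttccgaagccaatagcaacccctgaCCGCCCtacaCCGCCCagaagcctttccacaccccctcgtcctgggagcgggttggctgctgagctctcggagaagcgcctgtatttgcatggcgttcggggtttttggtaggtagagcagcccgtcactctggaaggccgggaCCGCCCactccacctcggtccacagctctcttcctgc
HS3ST5: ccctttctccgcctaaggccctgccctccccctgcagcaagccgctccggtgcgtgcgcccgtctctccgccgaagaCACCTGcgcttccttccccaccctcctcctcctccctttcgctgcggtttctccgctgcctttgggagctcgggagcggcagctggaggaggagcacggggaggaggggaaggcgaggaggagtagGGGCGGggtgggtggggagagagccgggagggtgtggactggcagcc
HPSE: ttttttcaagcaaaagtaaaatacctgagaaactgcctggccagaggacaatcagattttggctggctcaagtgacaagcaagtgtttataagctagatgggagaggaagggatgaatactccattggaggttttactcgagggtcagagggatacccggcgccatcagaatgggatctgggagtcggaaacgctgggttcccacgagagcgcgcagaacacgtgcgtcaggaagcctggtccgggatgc
CHST15: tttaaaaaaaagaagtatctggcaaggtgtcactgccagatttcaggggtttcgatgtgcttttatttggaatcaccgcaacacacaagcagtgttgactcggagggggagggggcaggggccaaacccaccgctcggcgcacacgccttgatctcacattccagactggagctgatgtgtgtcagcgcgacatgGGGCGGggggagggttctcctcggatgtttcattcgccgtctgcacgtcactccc

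GLCE and HS3ST3B1 each held 5 GC box matches, GPC4 held 2, HS3ST5 and CHST15 held 1, and HPSE held none. HPSE and CHST15 had the lowest GC content of the 6, 51.6% and 55.6%, against 64.0% to 76.0% in the others. The CACCTG match in HS3ST5 had its first base at position -173 from the start, and the other 5 sequences had none. Promoters were found for 50 of the 57 genes. Of these, 41 (82.0%) held a GC box match, compared with 63.7% of the 12359 promoters of genes measured on both arrays and 42.3% of all 27305 promoters, and their median GC content was 67.6%, compared with 64.4% and 58.0%. CACCTG was present in 5 of the 50, those of HS3ST5, SDC1, SDC3, NDST1 and CSPG4, compared with 16.6% of genes measured on both arrays and 17.5% of all promoters. Among these 5 genes only HS3ST5 was lower in substate 2. A match describes these letters only and says nothing of binding.

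The wider pathway was described by lists of genes that supply, break down or further carry the chains. The list of donor and sulphate supply held 15 genes, including FAM20B and PXYLP1, which add and remove a phosphate on the linker xylose. All 15 were measured, none differed 1.5-fold, and their median was 0.01. FAM20B and PXYLP1 differed by -0.08 and -0.21. The highest difference was that of UGDH, which makes the glucuronic acid donor (2.16 in substate 1 and 2.62 in substate 2). PAPSS1 and PAPSS2, which make the sulphate donor, differed by 0.06 and 0.01. Of the 16 lysosomal breakdown genes 15 were measured, none differed 1.5-fold, and the median was -0.06. HGSNAT and ARSK were farthest from 0 (0.54 and -0.53).

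Of 16 further carriers 13 were measured, and their median difference was -0.20, with 11 of them below the median of all genes. SPOCK1 (testican), at 2.04 in substate 1 and 1.42 in substate 2, was 1.53-fold lower, and BGN (biglycan), dim at -3.69 and -2.96, was 1.65-fold higher. That is 1 of 13 in each direction, beside 5.03% lower and 4.32% higher of all genes. After normexp correction the 13 carriers ranged from -0.576 to 0.324, all inside 1.5-fold. The 3 heparan sulphate proteoglycans of basement membranes, grouped after their values were seen, were all lower, each by less than 1.5-fold. AGRN (agrin) was at 5.10 and 4.53, with 2 probes that both were lower, HSPG2 (perlecan) was at -0.46 and -0.96 over 4 probes that all were lower, and COL18A1 (collagen XVIII) was at 7.66 and 7.39. Their median stayed between -0.57 and -0.40 under the alternatives.

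**Figure D4:**
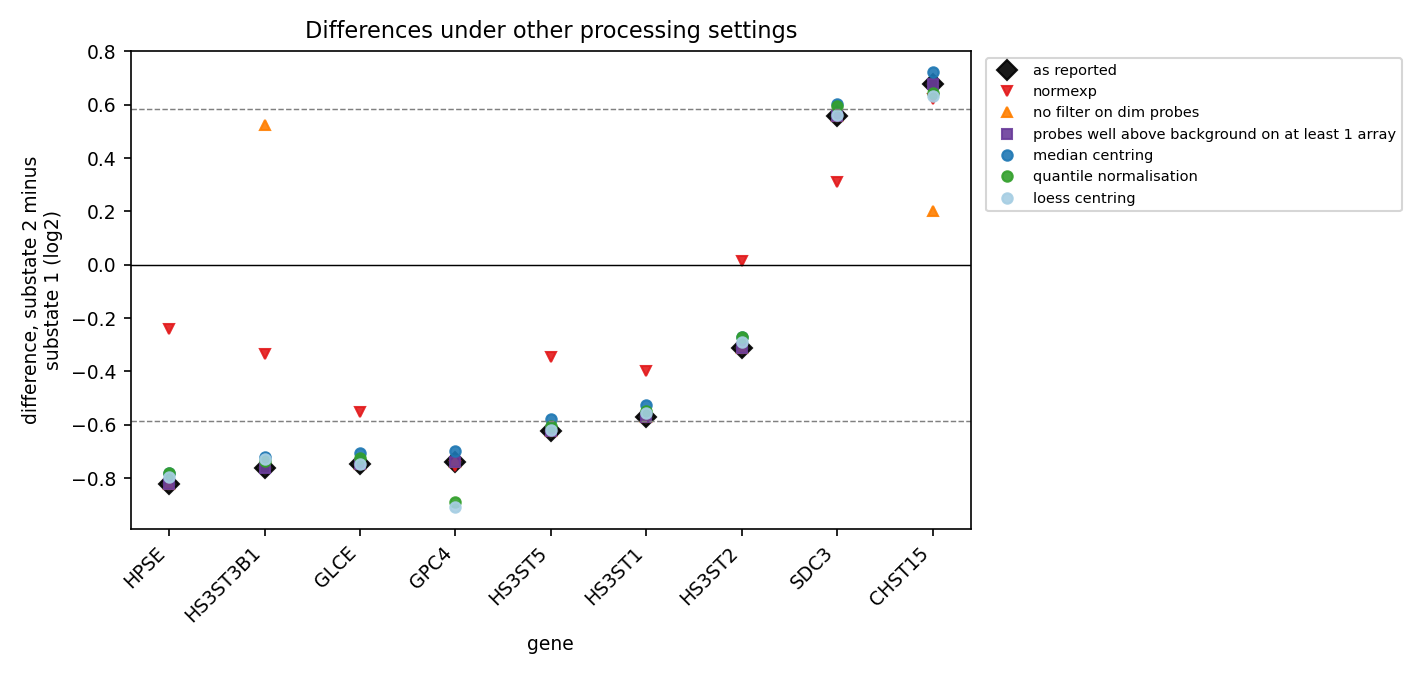
Difference between substate 2 and substate 1 (y axis, log2) of 9 genes (x axis) as reported (black diamonds) and under 6 other processing settings. Dashed lines mark 1.5-fold. Quantile and loess normalisation moved GPC4 from -0.74 to -0.89 and -0.91, normexp correction moved HPSE, HS3ST3B1, HS3ST5, GLCE, HS3ST1, HS3ST2 and SDC3 toward 0, and keeping dim probes moved HS3ST3B1 above 0 and CHST15 to 0.20.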

How the data were processed

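Total RNA, for which the labels (150 ng) and the study's sample list give different amounts, was labelled with Cy3 and hybridised to 1 Agilent SurePrint G3 Human array per substate. The authors deposited the scanner output, in which each spot has an intensity that Feature Extraction 11.5.1.1 (protocol GE1_1105_Oct12) had corrected for background, and a matrix of log2 values whose scaling the labels do not give. On the scale used here (below), matrix and scanner values differed by a constant per array for 100% of 58201 probes within 0.01. Both arrays were on 1 slide.

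Intensities under 1 were set to 1 (0 spots), log2 was taken, outlier spots (71 and 101) were left out, and the 75th percentile over non-control probes was subtracted. No spot was saturated. A gene value is the mean over probes well above background on both arrays. A probe well above background on 1 array was set against the higher of the other array's lowest such signal and the probe's own value, and is written as at least N-fold. Probes were named by RefSeq accession in a GRCh38.p14 table (31100 of 58201 probes); probes without such an accession were not used, so a gene can have further probes. The array is annotated on hg19, and no probe coordinates are given. Since each substate has 1 array, rules of size (1.5-fold, 2-fold, Z-score of 2) stand in place of tests. Precision is limited by having 2 arrays.

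The genes and lists were chosen with earlier results of these data known. Values on both arrays are given by rule for genes of the set 1.5-fold or more apart by the gene value or a bound, for 1 gene in each role group picked by its signal (only to choose what to print, since probe affinity also sets a signal), and where probes of a gene differ by 1 or more. Other genes were named with their values known. Scripts were tested on simulated data. Python 3.11.15, statsmodels 0.14.6 (loess) and limma 3.58.1 (normexp) were used.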

Additional observations from a re-analysis of the deposited data

How the results depend on the processing

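No paired analysis was possible because a single array stood for each substate. Results were recomputed with the arrays centred on their medians, quantile or loess normalisation, normexp correction (on median spot and background signals, the columns that the files hold), outlier spots kept, the deposited matrix, probes above background on either array, no filter, and the median or the brightest probe per gene. Keeping outlier spots and using the deposited matrix changed no count, which says nothing about stability, as they hardly alter the values. The count of genes 1.5-fold lower, 5 as reported, was 1 under normexp (GPC4, beside 1.95% of all genes). It was 4 to 6 otherwise, beside 4.32% to 8.16% of all genes. DSE, of the chondroitin sulphate side, was among the 6 after quantile or loess normalisation. SDC2 was among the 6 with probes above background on either array, and SDC2 and the chondroitin sulphate carrier BCAN without a filter. The count 1.5-fold higher, 1 as reported (CHST15), was 2 of 49 after centring on the median or quantile normalisation, with SDC3 added. Of all genes 5.56% and 4.46% were so under these settings. Without a filter it was 3 of 55 (CSGALNACT1, NDST3 and NDST4, all near background), beside 8.63% of all genes. Without a filter 2 genes were 2-fold higher, where 0 were reported; the dim probes let in are the cause. Of the 73 probes 3 were past the Z-score limits, 7 under normexp and 1 when only probes measured on both arrays were used. The share of all probes called was not computed under normexp or for probes measured on both arrays. Those counts therefore have no background beside them. The 7 were probes of CHPF, CHST15, DSE, GLCE, GPC4, HS3ST1 and HS3ST5, and shared none with the 3. Sign was followed gene by gene for CHST15, GLCE, GPC4, HPSE, HS3ST1, HS3ST2, HS3ST3B1, HS3ST5 and SDC3 only. Among these it changed for HS3ST3B1 without a filter (0.52) and HS3ST2 under normexp (0.0156). Other genes with values near 0 changed sign too. After centring on the median 23 of the 49 genes were below 0, where 26 were reported. The median difference of the set ranged from -0.10 to 0.01. Signals near background limit what can be said of BCAN, GPC5, NDST3, NDST4 and CSGALNACT1, for which a difference was not detectable here.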

Other observations

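The 3 enzymes that convert glucuronic to iduronic acid act on different chains, and all 3 were lower in substate 2. GLCE, for heparan sulphate, differed by -0.75, and DSE and DSEL, both for dermatan sulphate, by -0.47 and -0.49. DSEL was at -0.26 in substate 1 and -0.74 in substate 2, and its 2 probes differed by -0.57 and -0.41. Their median lay between -0.61 and -0.45 under the alternatives, and each was below the median of all genes in every one of them. These genes were grouped after their values had been seen.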
